A study of Mus musculus with 18 samples.

Results

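The proteasome genes were followed in mouse embryonic stem (ES) cells through every probe set, the group of short oligonucleotides that reads a transcript, whose chip annotation gives a single gene symbol beginning with Psma, Psmb, Psmc, Psmd, Psme, Psmf or Psmg. These were 85 of the 36701 probe sets tested, 58 on the chip U74Av2, 8 on U74Bv2 and 19 on U74Cv2, and they read 49 of the 15964 genes with such a probe set. The rule used no measured value. WT FVB/N ES cells grown with LIF, the cytokine that keeps ES cells undifferentiated through STAT3, were compared with FVB/N ES cells of a transgenic line in 4-hydroxytamoxifen (OHT) without LIF. That line is hemizygous for STAT3-MER, in which STAT3 is fused to the altered ligand-binding part of the mouse estrogen receptor and becomes active with OHT, driven by the chicken β-actin promoter. Each group is 1 cell line in 3 independent dishes, and the RNA of each dish was amplified in 2 rounds and hybridized to the 3 chips. P-values therefore measure the spread between dishes of a line and not between lines. Both lines were established on mouse embryonic fibroblast feeders, and fibroblast RNA may be part of what a dish gave.

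The proteasome degrades proteins that carry ubiquitin chains. Its 20S core is a barrel of stacked α and β rings, whose proteolytic sites lie in the β subunits encoded by Psmb5, Psmb6 and Psmb7, and the 19S regulatory particle, with a ring of ATPases, further base subunits and a lid, binds, unfolds and deubiquitinates the substrates. Under interferon γ, cells replace the 3 catalytic subunits with those of Psmb8, Psmb9 and Psmb10 and make the PA28 activator from Psme1 and Psme2, which changes the peptides available to MHC class I. This immunoproteasome is abundant in lymphoid cells and is also made by fibroblasts, and ES cells carry mainly the constitutive form. Both forms share the α ring, the structural β subunits and the 19S particle, so that only the exchanged subunits separate them.

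Since STAT3 is the factor that LIF and STAT3-MER act through, the 250 bases before the transcription start were searched in the exchanged subunits and their counterparts. The RefSeq promoter table of GRCm38.p6 holds 32851 promoters, and 41 of the 49 genes have an entry. Psmb7 is not among them. The stretches are written 5′ to 3′ along the gene in lower case, and capitals mark matches on either strand to TTCNNNGAA (a STAT-type motif, which is its own reverse complement), GAAANNGAA (an IRF-type motif of interferon-responsive genes), TGACNNNGC (an antioxidant-response-type motif, the kind that the proteasome regulator Nfe2l1 binds) or CCAAT. None of these matches overlap in the stretches shown. The 4 immunoproteasome genes with a probe set of their own come first, and then the counterparts of Psmb8 and Psmb9.
Psmb8 promoter, chr17:34197945-34198194 (+ strand): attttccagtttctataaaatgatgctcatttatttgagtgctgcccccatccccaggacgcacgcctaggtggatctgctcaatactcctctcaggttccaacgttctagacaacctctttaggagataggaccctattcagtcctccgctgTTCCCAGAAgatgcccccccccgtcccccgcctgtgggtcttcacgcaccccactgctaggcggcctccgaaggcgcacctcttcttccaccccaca
Psmb9 promoter, chr17:34187331-34187580 (- strand): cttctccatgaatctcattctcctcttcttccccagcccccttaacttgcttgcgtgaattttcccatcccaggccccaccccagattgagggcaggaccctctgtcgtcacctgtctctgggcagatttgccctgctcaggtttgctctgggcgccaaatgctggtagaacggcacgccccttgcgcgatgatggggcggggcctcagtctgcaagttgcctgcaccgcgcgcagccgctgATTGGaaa
Psmb10 promoter, chr8:105938393-105938642 (- strand): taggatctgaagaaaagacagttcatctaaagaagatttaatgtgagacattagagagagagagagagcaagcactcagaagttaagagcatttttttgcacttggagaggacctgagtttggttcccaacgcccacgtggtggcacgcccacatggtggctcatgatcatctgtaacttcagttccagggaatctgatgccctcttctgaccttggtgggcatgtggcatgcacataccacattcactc
Psme1 promoter, chr14:55578244-55578493 (+ strand): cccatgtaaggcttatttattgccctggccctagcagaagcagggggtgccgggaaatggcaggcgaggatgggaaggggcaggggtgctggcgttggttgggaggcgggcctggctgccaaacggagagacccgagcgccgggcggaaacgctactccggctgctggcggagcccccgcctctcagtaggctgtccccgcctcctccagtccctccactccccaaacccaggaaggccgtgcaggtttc
Psmb5 promoter, chr14:54617996-54618245 (- strand): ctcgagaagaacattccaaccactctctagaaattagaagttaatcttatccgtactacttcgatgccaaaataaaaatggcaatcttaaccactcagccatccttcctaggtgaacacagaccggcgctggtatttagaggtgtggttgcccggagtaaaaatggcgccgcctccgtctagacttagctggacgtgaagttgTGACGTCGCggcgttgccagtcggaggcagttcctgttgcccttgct
Psmb6 promoter, chr11:70525107-70525356 (+ strand): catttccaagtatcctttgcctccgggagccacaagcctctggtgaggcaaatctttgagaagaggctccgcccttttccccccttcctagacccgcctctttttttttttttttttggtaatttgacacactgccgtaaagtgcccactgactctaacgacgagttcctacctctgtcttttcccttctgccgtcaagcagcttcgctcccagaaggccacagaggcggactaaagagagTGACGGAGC

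Of these 6 stretches, that of Psmb8 holds a STAT-type match, TTCCCAGAA, from 97 to 89 bases before the start, a match that 7.02% of all promoters of this length have and 2 of the 41 proteasome promoters, those of Psmb8 and Psmg1. The IRF-type letters are in 7.13% of all promoters and in 3 proteasome promoters, those of Psmb3, Psmd4 and Psmd9, and in none of the 6 shown, which says only that these letters are not in these windows. The antioxidant-response-type match lies from 47 to 39 bases before the start in Psmb5 (TGACGTCGC) and from 9 to 1 bases before it in Psmb6 (TGACGGAGC). It is in 10.2% of all promoters and in 5 of the 41. CCAAT is in 33.8% of all and in 16 of the 41, Psmb9 among them. Psmb9 and Tap1, a subunit of the peptide transporter of the MHC class I pathway, start on opposite strands of chromosome 17 with 225 bases between the starts, so that the 225 bases nearest to the start are part of the upstream stretch of both genes. A match of letters is a description and not a binding site.

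None of the 85 probe sets passed limma's test at an adjusted p of 0.05, against 0.00272% of all probe sets, which is 1 probe set of Esr1, the estrogen receptor gene that gives the MER domain (23.1 ± 15.8 in WT against 27655 ± 3375 in STAT3-MER dishes, signal, mean ± SD, n = 3 each). The mean was higher in STAT3-MER cells for 51 and lower for 34, the median log2 fold change was 0.07 (0.01 over all probe sets), and the log2 fold changes ran from -0.95 to 0.91. A log2 fold change is given throughout as STAT3-MER over WT on the scale of log2(signal + 32), which understates changes of dim probe sets. Higher and lower means are counted on this scale throughout, and the mean signal of a probe set can go the other way. At an unadjusted p under 0.05 there was 1 proteasome probe set, that of Psme1, against 3.45% of all. The 3 dishes of one group all lay above those of the other on 4 probe sets with STAT3-MER on top, against 4.5% of all, and on 2 with WT on top, against 3.63% of all. Those shares are near the background. The higher ones read Psma3, Psmc6, Psme4 and Psmf1, and the lower ones Psme1 and Psmb4. The criteria of the study's methods, a ratio of means over 1.5 with a difference over 100 and p under 0.1 in the methods' t-test, took 1 probe set, that of Psmf1, as higher (1.1% of all) and 0 as lower (0.872% of all). The study applied its criteria to values from the dChip software, and here they were applied to the deposited signals. These counts are therefore not those of the study's own screen. The 95% interval of the log2 fold change lay within 1 of 0 for 55 of the 85, and for 84 it held 0. The smallest p that an exact two-sided permutation test over 3 and 3 dishes allows is 0.1. When arrays of this spread were simulated, limma called 46 of 68 probe sets with a true log2 change of 4. It called 11 of 55 with one of 2 and 0 of 77 with one of 1. The changed ones were drawn from all probe sets, with the observed spread of each taken as its true spread. Proteasome probe sets had a smaller median standard error in limma (0.27 against 0.36 over all). The simulation therefore does not settle which changes were detectable among them.

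**Figure D1:**
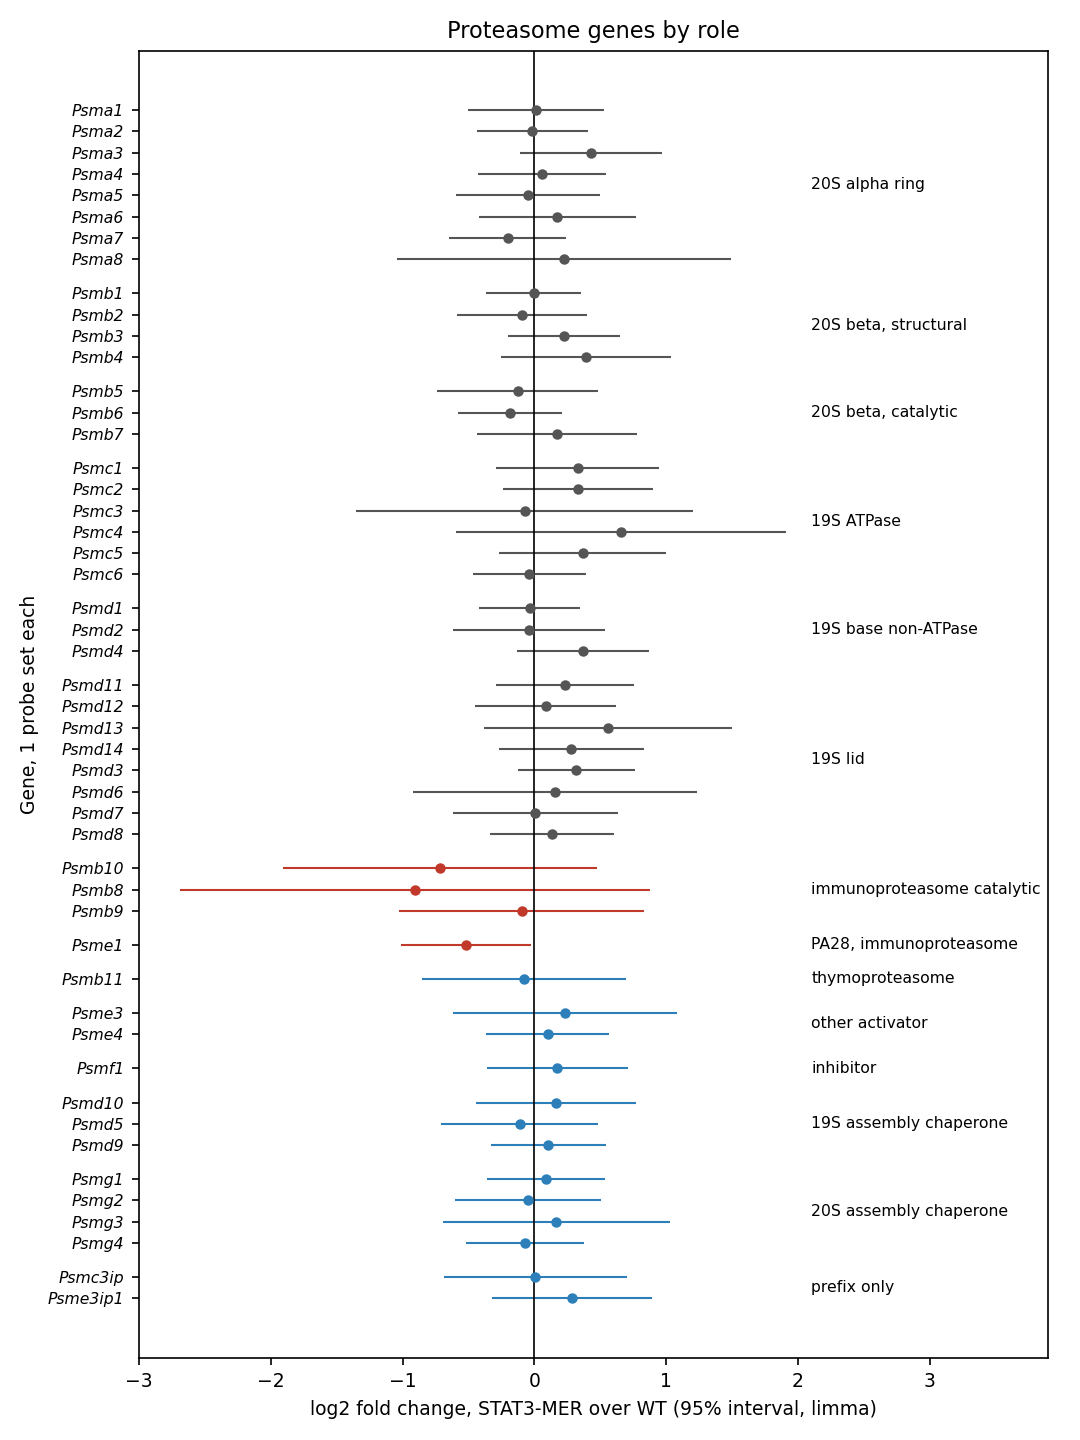
Log2 fold change of STAT3-MER over WT cells (horizontal axis) for the 49 proteasome genes, 1 probe set each, grouped by role, with bars for the 95% interval from limma. Immunoproteasome genes (red) lie left of 0, the constitutive subunits (grey) lie on both sides with a median of 0.15, and other proteasome genes are blue. The interval of Psme1 is the one that does not reach 0.

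The immunoproteasome genes were lower on average in the STAT3-MER dishes, and in 3 of the 4 the dishes of the groups overlapped. Psmb8, whose product (LMP7, β5i) takes the place of the Psmb5 subunit, read 288, 161 and 453 in WT replicates 1 to 3 against 10.7, 319 and 270.0 in STAT3-MER replicates 1 to 3. The lowest dish, STAT3-MER replicate 1, stood far below the 5 others, which overlapped. The log2 fold change was -0.91 (SE 0.77, the standard error from limma), and it turned to 0.07 without that dish. A second Psmb8 probe set on U74Cv2 was dim, with 101, 58.4 and 96.6 in WT against 73.4, 114 and 75.5 in STAT3-MER cells, for a log2 fold change of 0.03 (SE 0.42) whose sign turned under quantile (-0.08) and median scaling (-0.02). On it STAT3-MER replicate 1 was the lowest STAT3-MER dish at 73.4, within the range of the WT dishes. At so dim a signal it cannot tell whether the low value of the brighter probe set repeats.

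Psmb10 (MECL-1, β2i), which takes the place of the Psmb7 subunit, read 288, 463 and 1307 in WT against 243, 278 and 529.7 in STAT3-MER cells, for a log2 fold change of -0.72 (SE 0.52) that became -0.13 without WT replicate 3 and -1.16 without WT replicate 1. The WT mean rested on replicate 3, and the other WT dishes lay among the STAT3-MER dishes. Psmb9 (LMP2, β1i), which takes the place of the Psmb6 subunit, was dim with 27.4, 63.9 and 107 in WT against 23.3, 77.1 and 75.6 in STAT3-MER cells, for a log2 fold change of -0.10 (SE 0.40). Its sign turned to 0.23 without STAT3-MER replicate 1 and to 0.20 without WT replicate 3. All 3 catalytic genes were lowest in STAT3-MER replicate 1 and highest in WT replicate 3.

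Psme1, the α subunit of PA28, was the member with the smallest p. It read 688, 677 and 805 in WT against 554, 390.5 and 556 in STAT3-MER cells, and every STAT3-MER dish lay below every WT dish. The means were 724 ± 70.7 and 500.0 ± 94.8 (signal, SD, n = 3 each), for a log2 fold change of -0.52 (SE 0.22, 95% interval -1.01 to -0.02). The unadjusted p from limma was 0.0421 and the adjusted p 1.00 over all 36701 probe sets, so the gene did not pass. The log2 fold change stayed between -0.60 and -0.36 when any 1 dish was left out. The other Psme1 probe set, whose suffix marks possible cross-hybridization, gave 4.13, 47.8 and 19.6 in WT against 3.02, 11.8 and 26.5 in STAT3-MER cells, and the groups overlapped. Psme2, the β subunit of PA28, was read here only together with its near copy Psme2b, by probe sets that the rule leaves out and that cannot tell these genes apart. Of these 3, the brightest read 1037, 827 and 1701 in WT against 605, 1026 and 741 in STAT3-MER cells, for a log2 fold change of -0.54 (SE 0.31). The groups overlapped on all 3, and the other 2 had log2 fold changes of 0.00 and -0.01.

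**Figure D2:**
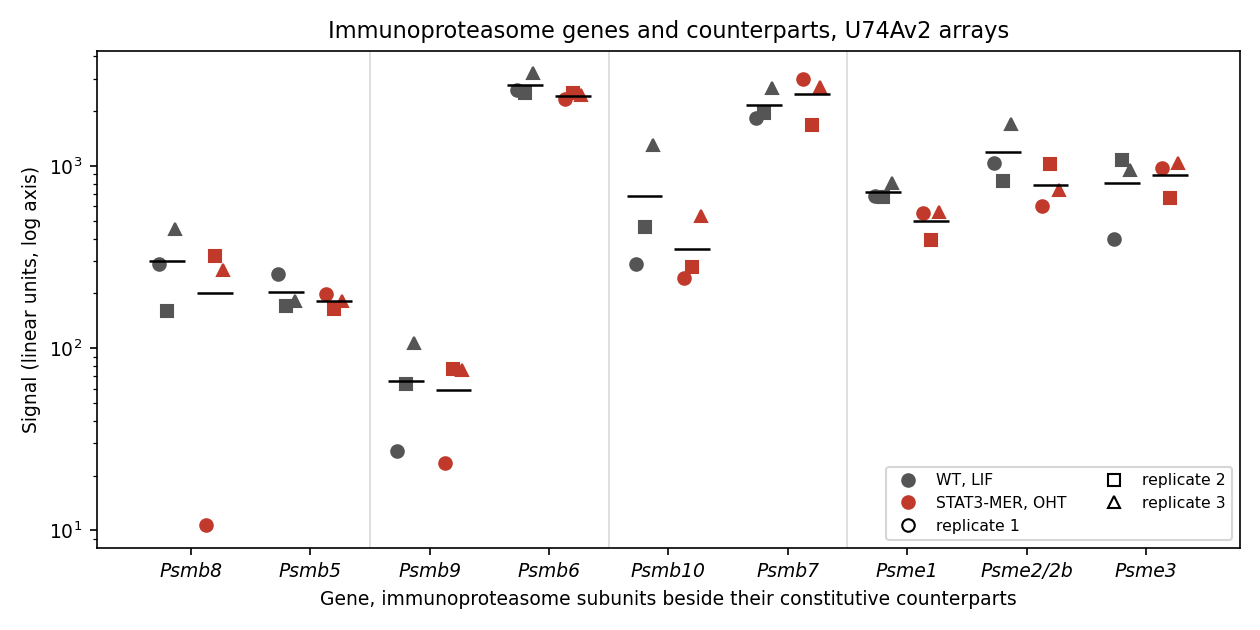
Signal on U74Av2 (vertical log axis) of the immunoproteasome genes beside their constitutive counterparts, in WT dishes with LIF (grey) and STAT3-MER dishes with OHT (red), with a marker shape for each replicate number and horizontal lines for group means. Levels compare within a gene only, since probe sets differ in brightness. Psmb8 and Psmb9 are lowest in STAT3-MER replicate 1 and Psmb10 is highest in WT replicate 3, while the 3 Psme1 values of STAT3-MER cells lie below the WT values.

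Markers of feeder fibroblasts differed between dishes of the same group on the arrays that read these genes. The summed U74Av2 signal of 18 fibroblast genes (Col1a2, Acta2 and Dcn were the brightest), all listed above 0 in every dish, was 56034, 25276 and 57288 in WT replicates 1 to 3 against 15634, 63156 and 47256 in STAT3-MER replicates 1 to 3. STAT3-MER replicate 1, the dish with the lowest Psmb8, Psmb9 and Psmb10, was also lowest on 17 of these 18 genes. From the lowest upwards the summed fibroblast signal and Psmb8 ran through the same 4 dishes in the same order, STAT3-MER replicate 1, WT replicate 2, STAT3-MER replicate 3 and WT replicate 1, before STAT3-MER replicate 2 and WT replicate 3, which changed places. Psmb9 and Psmb10 did not follow this order, since their second lowest dishes were WT replicate 1 and STAT3-MER replicate 2. Psme1 did not follow it either, since its lowest dish was STAT3-MER replicate 2, where the fibroblast sum was highest. The part of fibroblast RNA in the Psmb8 values was not tested, and in these bulk samples fewer cells of a type and less RNA per cell cannot be told apart. Between the groups, 1 of the 18 fibroblast genes had a positive and 17 a negative log2 fold change (median -0.22), and 0 passed the test. In mean signal Col1a1, Col5a2, Sparc and Tagln were higher in STAT3-MER cells. Of the 17, all but Lum and Dcn turned positive when some 1 dish was left out, up to 0.76 for Tagln. ES cell markers were bright in every dish: the summed signal of 10 of them on U74Av2, Dppa5a, Sox2 and Nanog the brightest, lay between 56946 and 85602 in WT against between 64802 and 73591 in STAT3-MER dishes.

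The genes that use immunoproteasome products were read in the same arrays. Of 11 genes of MHC class I presentation, 0 passed the test, 5 had a higher and 6 a lower mean in STAT3-MER cells, and the median log2 fold change was -0.16. STAT3-MER replicate 1 was the lowest array on 5 of the 9 genes of this list on U74Av2. Among these 5 was B2m, the brightest of the list. It read 3516, 888 and 4113 in WT against 690, 4577 and 2866 in STAT3-MER cells (log2 fold change -0.16, SE 0.76). Tap1 read 400.4, 189 and 372 in WT against 129, 405 and 305 in STAT3-MER cells, with the lowest values in STAT3-MER replicate 1 and WT replicate 2 as for Psmb8, and the log2 fold change was -0.23 (SE 0.43). Tap2, the partner of Tap1 in the transporter, read 83.9, 124 and 87.7 in WT against 55.0, 81.5 and 81.5 in STAT3-MER cells, for a log2 fold change of -0.32 (SE 0.28), and its groups did not overlap. The smallest p of this list belonged to the dim peptide-loading chaperone Calr (log2 fold change 0.45, SE 0.28), and the next after Tap2 to the class I transactivator Nlrc5 (-0.56, SE 0.55), whose mean rested on 182 in WT replicate 1 beside 16.2 and 6.46. Of 8 measured genes of interferon γ signalling 4 had a higher and 4 a lower mean, the median was 0.04, and 0 passed. Irf1, which interferon γ induces and which activates immunoproteasome genes, read 373, 269 and 528 in WT against 415, 407 and 298 in STAT3-MER cells (log2 fold change -0.03, SE 0.29). The receptor chain Ifngr2 (-0.47, SE 0.29), Irf8 (0.34, SE 0.34) and Irf9 (0.20, SE 0.25) had the smallest p of that list, the smallest being 0.142 in limma, and the groups overlapped on each.

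The constitutive counterparts showed no fold change as large as those of Psmb8 and Psmb10. On Psmb5, which carries the chymotrypsin-like site, the probe set without a suffix read 255, 171 and 183 in WT against 199.5, 164 and 181 in STAT3-MER cells, for a log2 fold change of -0.13 (SE 0.27). Its brighter probe sets, which carry cross-hybridization suffixes, gave 0.03 (SE 0.32) and 0.00 (SE 0.26), and the signs of all 3 turned with the dish that was left out. Psmb6, which carries the caspase-like site, read 2625, 2499.9 and 3225 in WT against 2336, 2503 and 2438 in STAT3-MER cells, for a log2 fold change of -0.19 (SE 0.17). Psmb7, which carries the trypsin-like site, read 1834, 1955 and 2695 in WT against 3019, 1684 and 2717 in STAT3-MER cells, for a log2 fold change of 0.17 (SE 0.26) that ran from 0.00622 (STAT3-MER replicate 1 left out) to 0.42 (STAT3-MER replicate 2 left out). Psme3, the subunit of the nuclear PA28γ activator, read 397, 1072 and 947 in WT against 975, 666 and 1034 in STAT3-MER cells, and its log2 fold change of 0.23 (SE 0.37) turned to -0.20 without WT replicate 1. On all 4 genes the groups overlapped.

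Each exchanged subunit was set against its counterpart within a dish, as a difference of log2 signals centred on its mean over the 3 WT arrays. A difference between the groups so shows unequal change and not a level. Psmb5 was read by its probe set without a suffix. For Psmb8 minus Psmb5 the centred values were -0.26, -0.50 and 0.76 in WT against -2.86, 0.42 and 0.09 in STAT3-MER replicates 1 to 3. The group difference of -0.78 rested on STAT3-MER replicate 1, and without it was 0.26. It was -0.40 without WT replicate 3 and -0.47 with a pseudocount of 100. For Psmb9 minus Psmb6 the values were -0.56, 0.20 and 0.37 in WT against -0.50, 0.38 and 0.40 in STAT3-MER cells, a group difference of 0.09 whose sign turned when WT replicate 1 (-0.19), STAT3-MER replicate 2 (-0.0511) or STAT3-MER replicate 3 (-0.0604) was left out, and which was 0.39 when STAT3-MER replicate 1 was. For Psmb10 minus Psmb7 they were -0.68, -0.15 and 0.83 in WT against -1.62, -0.61 and -0.43 in STAT3-MER cells, a difference of -0.89 that was -0.47 when WT replicate 3 was left out and -0.52 when STAT3-MER replicate 1 was. On these 3 pairs the groups overlapped. For Psme1 minus Psme3 the STAT3-MER dishes were close together at -0.74, -0.68 and -0.82, and lay below the WT dishes at 0.79, -0.60 and -0.19. The group difference of -0.75 became -0.36 without WT replicate 1, the dish with the low Psme3 signal. For the probe set of Psme2 and Psme2b minus Psme3 the group difference was -0.77, with overlapping groups. No test was run on the pairs, as an exact permutation test cannot reach 0.05 with 3 dishes in each group.

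The 20S core genes other than the exchanged ones had higher and lower means side by side. Of 8 α ring genes, with 1 probe set each, 5 had a higher and 3 a lower mean in STAT3-MER cells, with log2 fold changes from -0.20 (Psma7) to 0.43 (Psma3). The Psma3 probe set on U74Cv2 read 939.6, 1293 and 1190.3 in WT against 1627, 1455 and 1526 in STAT3-MER cells, and every STAT3-MER dish was above every WT dish, with a log2 fold change of 0.43 (SE 0.24, unadjusted p = 0.105 in limma). The brightest α ring probe set also reads Psma3 and showed nothing of this size. It gave 15314, 15622 and 14782 in WT against 15513, 13562 and 17572 in STAT3-MER cells, for a log2 fold change of 0.02 (SE 0.19), but its suffix marks possible cross-hybridization. The remaining Psma3 probe set gave 0.22 (SE 0.25), with overlapping groups. Psma8, the α subunit of the testis proteasome, had log2 fold changes of -0.41 and 0.22 on its pair of probe sets.

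Of the 4 structural β genes 2 had a higher and 2 a lower mean, from -0.10 (Psmb2) to 0.39 (Psmb4). The Psmb4 probe sets moved against each other. The brightest, with a cross-hybridization suffix, read 11821, 10539.9 and 11043 in WT against 10401, 8697 and 10522 in STAT3-MER cells, with no overlap and a log2 fold change of -0.18 (SE 0.18). The one without a suffix was dim, with 69.0, 28.5 and 52.5 in WT against 84.8, 72.0 and 64.2 in STAT3-MER cells, for a log2 fold change of 0.39 (SE 0.28). Psmb3 gave 0.22 (SE 0.18) on its bright probe set. On its dim one, which read 18.02, 33.0 and 20.4 in WT against 52.9, 29.0 and 152 in STAT3-MER cells, the log2 fold change was 0.83 (SE 0.43) and the groups overlapped. The brighter Psmb1 probe sets gave 0.07 (SE 0.28) and -0.01 (SE 0.16).

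The 19S particle was on average higher in STAT3-MER cells, without any subunit that passed the test. All 8 lid genes had a higher mean (median log2 fold change 0.19), and so had 4 of the 6 ATPases (median 0.33) and 1 of the 3 other base genes. Over all 15964 genes, 8057 had a higher mean. The highest of these ATPase values was 0.65 (SE 0.56) for Psmc4, on a dim probe set with a mean signal of 164. Psmd4, the base subunit that binds ubiquitin chains, read 3767, 5788 and 4865 in WT against 6114, 5255 and 7130 in STAT3-MER cells, for a log2 fold change of 0.37 (SE 0.22), while its dimmer U74Cv2 probe set gave -0.36 (SE 0.49). Psmd3 of the lid read 1087, 1599 and 1303 in WT against 1765, 1579 and 1602 in STAT3-MER cells, for a log2 fold change of 0.32 (SE 0.19). Psmd11, the lid gene with the brightest probe set, read 3086, 4077 and 2446 in WT against 3233, 3611 and 4296 in STAT3-MER cells (log2 fold change 0.23, SE 0.23), and its other probe sets gave -0.17 and -0.13.

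Among the ATPases, which thread the substrate into the core, Psmc3 was read by 5 probe sets, 4 of them with a higher mean in STAT3-MER cells. The one with the smallest p read 818, 1459 and 1304 in WT against 1945, 1176 and 1808 in STAT3-MER cells, for a log2 fold change of 0.46 (SE 0.28), and the next, a dim one on U74Cv2, read 160.3, 79.8 and 178 in WT against 305, 159.7 and 266 in STAT3-MER cells, with 0.70 (SE 0.48). The one without a suffix gave -0.07 (SE 0.57). Psmc1, Psmc2 and Psmc5 gave 0.33, 0.33 and 0.37 on their brightest probe sets. The other Psmc5 probe sets were dim and went the other way, with -0.36 (SE 0.55) and -0.38 (SE 0.31). Psmc6 had the brightest ATPase probe set, which read 7029, 6987 and 8029.8 in WT against 8519, 6525 and 6564 in STAT3-MER cells (log2 fold change -0.04, SE 0.19). Its U74Bv2 probe set read 1456, 1431 and 1354 in WT against 1496, 1748 and 1847 in STAT3-MER cells, with no overlap and a log2 fold change of 0.25 (SE 0.20).

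The 19S genes were lowest in a single WT array. On U74Av2 the median deviation of the 6 ATPase genes from their mean over the arrays was -0.59, 0.09 and 0.08 on the log2 scale in WT replicates 1 to 3 against 0.23, -0.19 and 0.49 in STAT3-MER replicates 1 to 3. That of the 8 lid genes was -0.39, 0.01 and 0.05 in WT against 0.31, -0.06 and 0.23 in STAT3-MER cells. WT replicate 1 was the lowest array on 9 of the 17 subunit genes of the 19S particle, and STAT3-MER replicate 2 on 4. The same WT array was the highest on 8 of 10 markers of primitive endoderm, another embryonic cell type. It was the lowest for the ES cell marker Pou5f1 (2157, against 3562 to 8348 on the other arrays). Of 11 ES cell markers it was the highest on 5 and the lowest on 3, and the part of this in the 19S values was not tested. Signals from the 3′ end of the Gapdh control transcript were 15.3 times those from the 5′ end on that WT array and between 9.06 and 10.6 times on the other U74Av2 arrays, and the part of this in the 19S values was not tested. On U74Bv2 and U74Cv2 the highest ratio was that of WT replicate 2, with 20.0 beside 7.38 to 9.90 and 16.2 beside 6.56 to 12.4. The U74Cv2 array of WT replicate 2 was also the lowest for the dim Psmb8 probe set, for the Psmc3 probe set at 79.8 and for a Psmf1 probe set at 237, and the part of the ratio in these values was not tested. The constitutive 20S core genes showed no such gap, with 0.01, -0.11 and 0.13 in WT against 0.08, -0.18 and 0.08 in STAT3-MER cells.

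**Figure D3:**
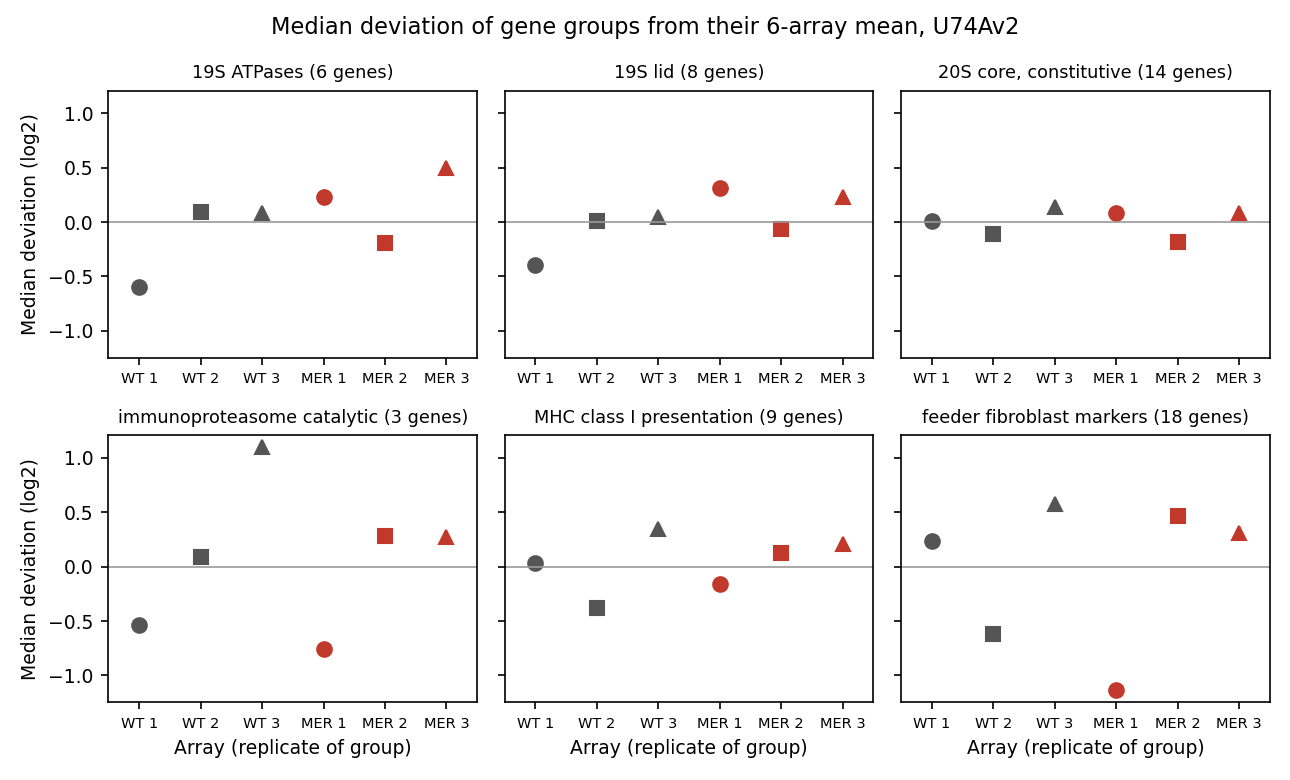
Median deviation (log2) of each gene group from its mean over the 6 U74Av2 arrays, by array, WT in grey and STAT3-MER (MER) in red with a marker shape for each replicate number. The ATPases and the lid are lowest in WT replicate 1. The catalytic immunoproteasome genes and the fibroblast markers are both lowest in STAT3-MER replicate 1 and highest in WT replicate 3, while WT replicate 2 is low in the fibroblast markers and not in the catalytic immunoproteasome genes.

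Over all subunits, the median log2 fold change of the 32 constitutive genes was 0.15, with 21 higher and 11 lower means, and that of the 4 immunoproteasome genes was -0.62, with 4 of 4 lower means. The 32 include the testis subunit Psma8, read by its dim probe set without a suffix (0.22). Over all 15964 genes with 1 probe set each the median was 0.00, and 0.09 over the 49 proteasome genes. The difference of the medians, immunoproteasome minus constitutive, was -0.76. The members were chosen by name but with earlier results of these data known, the groups differ in size, and no test was run on the difference. The immunoproteasome median was -0.22 without STAT3-MER replicate 1 and -0.29 without WT replicate 3, and the difference was then -0.28 and -0.45. The constitutive median was 0.06 when either WT replicate 1 or STAT3-MER replicate 1 was left out, 0.04 without STAT3-MER replicate 3 and 0.23 without STAT3-MER replicate 2. With a gene's probe sets averaged in place of 1 chosen, the immunoproteasome median was -0.41 and the difference -0.51. With the probe set shared by Psme2 and Psme2b added, the immunoproteasome median was -0.54.

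Among the other activators, the inhibitor and the tissue form, 3 of 4 genes had a higher mean in STAT3-MER cells and none passed. Psme4, which encodes the activator PA200, read 1509.9, 2004 and 2069.5 in WT against 2352, 1743 and 1892 in STAT3-MER cells on its bright probe set (log2 fold change 0.10, SE 0.20). A dimmer probe set on U74Cv2 read 79.0, 220.5 and 81.3 in WT against 243, 253 and 238 in STAT3-MER cells, with no overlap and a log2 fold change of 0.91 (SE 0.49), the highest of the 85. Psmf1, the proteasome inhibitor PI31, was read by 5 probe sets that did not move together. One read 429, 237 and 457 in WT against 503, 669 and 566 in STAT3-MER cells, with no overlap and a log2 fold change of 0.63 (SE 0.36). Another read 553, 197 and 366 in WT against 75.4, 144 and 356 in STAT3-MER cells, for a log2 fold change of -0.95 (SE 0.55), the lowest of the 85. Both carry the same cross-hybridization suffix, and the brightest one, without a suffix, gave 0.17 (SE 0.24) with 1524, 1284 and 2002 in WT against 2073, 1796 and 1519 in STAT3-MER cells. Psmb11, the thymus-specific β subunit, was dim in every dish, between 41.8 and 83.7.

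None of the assembly factors passed the test. Psmg1, a chaperone of the α ring, read 1359.5, 1624 and 1739 in WT against 1882, 1393 and 1767 in STAT3-MER cells (log2 fold change 0.09, SE 0.19), and the 4 Psmg genes lay between -0.07 and 0.17 on their chosen probe sets. The 0.17 was that of Psmg3, whose other probe sets gave -0.35 (SE 0.28) and -0.15 (SE 0.19). Psmd5, a chaperone of the 19S base, read 2480.1, 1231 and 1897 in WT against 1666, 1798 and 1534 in STAT3-MER cells (-0.11, SE 0.26), and the other base chaperones Psmd9 and Psmd10 gave 0.11 and 0.16. The dimmer Psmd5 probe sets gave 0.22 (SE 0.54) and 0.04 (SE 0.52), and the other Psmd10 probe set gave 0.88 (SE 0.76). Psmc3ip, a recombination cofactor, and Psme3ip1, a partner of PA28γ, carry the prefix without being subunits. The brightest Psme3ip1 probe set read 551, 926 and 736 in WT against 1164, 702 and 855 in STAT3-MER cells (0.29, SE 0.26).

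Probe sets of one gene often differed. Of the 21 genes with several probe sets, 14 had log2 fold changes of both signs and 7 of 1 sign, and 28 genes were read by 1 probe set. A suffix that marks possible cross-hybridization was carried by 22 of the 85. On U74Cv2, where the median log2 fold change over all probe sets was 0.05, 14 of the 19 proteasome probe sets had a higher mean in STAT3-MER cells, on U74Av2 33 of 58, and on U74Bv2 4 of 8.

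**Figure D4:**
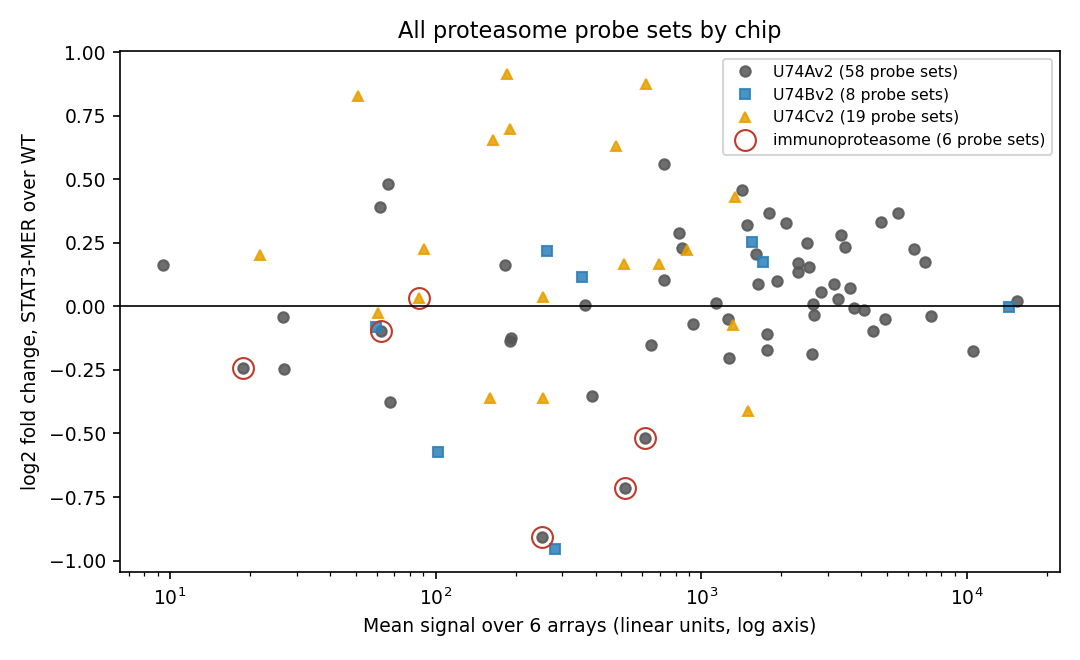
Log2 fold change of STAT3-MER over WT cells (vertical axis) against the mean signal over 6 arrays (horizontal log axis) for the 85 proteasome probe sets, by chip, with red rings round the 6 immunoproteasome probe sets. The probe sets spread from -0.95 to 0.91, with the largest values on U74Cv2, and the 3 brightest immunoproteasome probe sets (Psmb8, Psmb10 and Psme1) lie at -0.52 or lower.

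Genes that work with the proteasome were read as well. Of 11 measured partners without the prefix, such as receptors and deubiquitinases, 3 had a positive and 8 a negative log2 fold change (median -0.07) and 0 passed. Of the 8, Pomp and Ecpas had a higher mean signal in STAT3-MER cells. Uchl5, a deubiquitinase of the 19S base, read 477, 683 and 990.4 in WT against 719, 287 and 441 in STAT3-MER cells (log2 fold change -0.57, SE 0.37), and the ubiquitin shuttle factors Rad23b and Ubqln1 gave 0.31 (SE 0.25) and -0.18 (SE 0.28). Of the 4 measured genes of ubiquitin activation and of the p97 segregase, with a median of 0.03, Vcp, which encodes p97, gave 0.03 (SE 0.17), and its adaptors Ufd1 and Nploc4 gave 0.13 (SE 0.26) and -0.05 (SE 0.34). The 7 measured regulators of proteasome genes had a median of -0.05. Nfe2l1, the factor that raises proteasome genes when proteolysis is impaired, gave 0.10 (SE 0.18), and Ngly1, the enzyme that processes it, -0.18 (SE 0.41). Its dimer partner Maff had the smallest p of the lists, 0.0631 unadjusted in limma. It read 758, 1176 and 897 in WT against 1648, 1554 and 1038 in STAT3-MER cells, for a log2 fold change of 0.56 (SE 0.27), and the groups overlapped.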

How the data were processed

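RNA of 3 WT and 3 STAT3-MER dishes was measured on 3 chips (18 arrays). After 2 rounds of amplification and hybridization, the authors deposited a linear signal intensity for every probe set of every array, with no detection calls. MAS5 is the tool given in the submitters' processing notes, without a version, and the arrays had been scaled to trimmed means of 500.1 to 500.3. Depth has no meaning for arrays, and their number limits the precision.

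Arrays of a chip were brought to a common trimmed mean (without the outer 2% at either end), a change of almost nothing. Log2(signal + 32) was compared by limma (version 3.58.1, R 4.3.3; lmFit and a trended eBayes for every chip separately, two-sided), and p-values were Benjamini-Hochberg adjusted over 36701 non-control probe sets. The criteria of the study's methods were applied to the same signals, with unequal variances in the methods' t-test, whose form is not given in the sources used here. The fit was tested on simulated arrays, in which 0 of 36501 unchanged probe sets were called.

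Gene names came from the chip annotation, updated through RefSeq genes of GRCm38.p6. Where 1 probe set per gene was needed, those without a cross-hybridization suffix (_f, _i, _r, _s and the like) were preferred and then the brightest. Promoters came from RefSeq. Members and lists were chosen with earlier results of these data known. Values in every array are given for the immunoproteasome genes and their counterparts. They are also given for the 10 other proteasome probe sets with the smallest p and the brightest probe set of each role. Of each pathway list, the 3 genes with the smallest p are named beside Tap1 and Irf1. B2m was added as the brightest gene of its list. Psmc1, Psmc2, Psmc5 and others are given by fold change only, and the second probe sets of Psmc6 and Psme4 because their groups did not overlap. Alternatives tried were scaling by quantiles or the median, the deposited values, pseudocounts of 8 and 100, a filter on a mean signal of 200, no trend, adjustment by chip, a replicate block, omission of any dish, and other forms of the methods' t-test and of the choice of probe set. Figures were drawn with matplotlib 3.10.9.

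The STAT3-MER array on U74Av2 without a numbered label was called replicate 2. An array labelled with different chips holds the probe sets of U74Cv2 and was used as such.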

Additional observations from a re-analysis of the deposited data

How the results depend on the processing

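No proteasome probe set passed limma's test under any alternative run: quantile and median scaling, deposited values, pseudocounts of 8 and 100, the filter on dim probe sets (63 of the 85 remained), no trend, adjustment within each chip, the replicate block, or any 1 dish left out (0 in each). The smallest adjusted p of a proteasome probe set was 0.971, within each chip, and at an unadjusted p under 0.05 there was 1 with all dishes. With 1 dish left out, 11 to 22 probe sets had groups that did not overlap, against 6 with all dishes, as fewer dishes have to be apart. By the criteria of the methods, 2 probe sets passed with equal variances, 0 at a ratio over 2, and 0 to 3 with a dish left out, against 1. With a dish left out, the medians ran from 0.04 to 0.23 for the constitutive genes, from -0.82 to -0.22 for the immunoproteasome genes and from -0.85 to -0.28 for their difference. The Psmb8 minus Psmb5 difference ran from -1.38 to 0.26. The cause of these shifts was not tested. With a gene's probe sets averaged, the immunoproteasome median was -0.41 and the difference -0.51. Taking the brightest probe set whatever its suffix, and adding the probe set of Psme2 and Psme2b, were chosen after seeing the data. The immunoproteasome median was then -0.62 and -0.54, and the constitutive median with the brightest probe set was 0.07.

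Of the 32 named probe sets, 14 turned sign when 1 dish was left out and 2 under quantile or median scaling. Of the others, 15 kept their sign but moved by over 1.5 times without some dish, and 3 stayed within that limit. Their log2 fold changes with a dish left out ran from -1.45 to 0.0692 for the bright Psmb8 probe set, from -0.14 to 0.13 for the dim one, from -0.41 to 0.23 for Psmb9, from -0.20 to 0.49 for Psme3, from -0.52 to 0.0519 for the second Psme1 probe set, and from -0.25 to 0.0724 for Psmb11. They ran from -0.22 to 0.0271, from -0.36 to 0.23 and from -0.18 to 0.0945 for the probe sets of Psmb5, from -0.0707 to 0.12 for Psma3, from -0.16 to 0.0282 for Psmc6, from -0.38 to 0.12 for Psmd5, from -0.0401 to 0.19 for Psme4, and from -0.0113 to 0.22 for Psmg1. Under quantile and median scaling the brightest Psmb5 probe set gave 0.0981 and 0.0315, and the dim Psmb8 probe set gave -0.0753 and -0.0233.

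Nothing in the labels says that a replicate number marks a shared day or batch. Correlations of the deviations between dishes of the same number were 0.130 to 0.211 on U74Bv2 and 0.070 to 0.132 on U74Cv2, where every dish correlated best with its own number, a hint from the data and not from the design. On U74Av2 they were -0.30, -0.33 and 0.29, and the highest correlations there were 0.46 for WT 1 with STAT3-MER 2 and 0.41 for WT 2 with STAT3-MER 1, so the block by number joined dishes that deviate in opposite directions on that chip and says little there. Other pairings were not run. With the replicate block 0 proteasome probe sets passed, with a smallest adjusted p of 0.999, and the medians and pair differences were the same (0.15, -0.62, -0.76, -0.78, 0.09, -0.89 and -0.75), since the design is balanced. The WT or the STAT3-MER numbers 1 and 2 may name different dishes on U74Av2 than on the other chips. Leaving out such a replicate then removed arrays of different dishes. This touches the medians and the comparison of the Psmb8 probe sets by dish, but not the fold changes of single probe sets.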
